A study of Homo sapiens with 6 samples.

Results

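The genes of DNA replication and S phase were followed by RNA-seq in BT-549 cells after silencing of the lncRNA NEAT1. The group is a list of 49 named genes, grouped here by role, out of 25545 genes with expression values, and all 49 were found and tested. The rule uses gene names alone, but the list was drawn up with earlier results of these data known. BT-549 cells derive from a triple-negative breast cancer (TNBC) and were grown here in RPMI1640 with FBS and insulin. Cells received a control siRNA (CsiRNA) or an siRNA against NEAT1 (NEAT1siRNA), and total RNA was isolated 48 h later from 3 libraries per group. The library names also carry the term tet, for which the labels describe no induction. One cell line and one NEAT1siRNA label were sequenced, and the labels describe cultures in triplicate, so that p-values measure the spread between these cultures. Expression is given as TPM (a level corrected for transcript length and scaled to the same total in every library). Changes are differences of log2(TPM + 1), which understate the change of genes with low TPM.

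Replication is prepared in G1, when ORC, CDC6 and CDT1 load the MCM2 to MCM7 helicase ring onto origins. In S phase CDC45, the GINS complex and MCM10 activate that helicase, primase and polymerase alpha lay down primers, and polymerases delta and epsilon copy the strands while held by the PCNA clamp, which the RFC complex loads. Most of these genes are classical targets of the E2F factors, which the RB1 protein restrains until cyclin D and cyclin E kinases phosphorylate it. Whether this restraint acts in BT-549 cells cannot be read from RNA levels. NEAT1 is the RNA scaffold of paraspeckles, nuclear bodies that hold RNAs and RNA-binding proteins.

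NEAT1 itself (chr11:65422774-65445540, plus strand, GRCh38) was measured at 13.4, 7.68 and 10.8 TPM in CsiRNA replicates 1 to 3 and at 4.36, 2.96 and 2.73 TPM in NEAT1siRNA replicates 1 to 3. The groups did not overlap, and NEAT1 fell to 31.5% of its CsiRNA mean (log2 fold change -1.41 ± 0.14 (SE), limma adjusted p = 1.21e-07). Between 15773060 and 20351830 reads per library were recovered from the deposited values. VIM, a mesenchymal marker, ranged from 859 to 1112 TPM, whereas 7 markers (EPCAM, ESR1, PGR, GATA3, PTPRC, PECAM1 and HBB) stayed under 0.1 TPM in every library. ERBB2 was measured at 5.76 to 6.36 TPM and the macrophage marker CD68 at 23.2 to 29.2 TPM.

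The replication genes were expressed at a median of 17.9 TPM, against 9.10 TPM for the 10721 genes tested, and changed about as often as those. At an adjusted p under 0.05, 7 of 49 members (14.3%) changed, 6 lower and 1 higher, while 14.0% of all genes tested changed. Lower calls were made for 8.98% of all genes and higher calls for 4.99%. The genes that fell were RFC3, RFC5, MCM10, DNMT1, ORC6 and POLE, each to between 77.6% and 79.5% of the CsiRNA mean. The gene that rose was E2F2, to 160% of it. A further 42 members, with 240.2 (CCNE1) to 9847 (MCM4) recovered reads per library on average, did not pass the test. On the log2 scale 25 of the 49 members differed by less than 0.1, as did 4636 of the 10721 genes tested. These are bulk samples, in which fewer cells in S phase and less RNA per cell cannot be told apart.

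The members leaned to lower values without reaching the threshold. Of the 49, 39 had a negative log2 fold change (79.6%), against 60.7% of all genes tested, and the median was -0.09 against -0.04. All 3 NEAT1siRNA values lay below all 3 CsiRNA values for 16 members (32.7%), against 19.3% of all genes tested. The reverse was seen for 1 member, E2F2, against 11.0% of all genes. How many members were negative depended on the scale, from 28 of 49 with a GC and length trend removed to 43 of 49 without CsiRNA replicate 3. Their median stayed below 0, between -0.14 and -0.02, in all 18 settings. The median of all genes tested was also below 0 in every setting but median centring (0.01). It was -0.0006 with the trend removed and -0.07 without CsiRNA replicate 3, against member medians of -0.02 and -0.14.

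**Figure D1:**
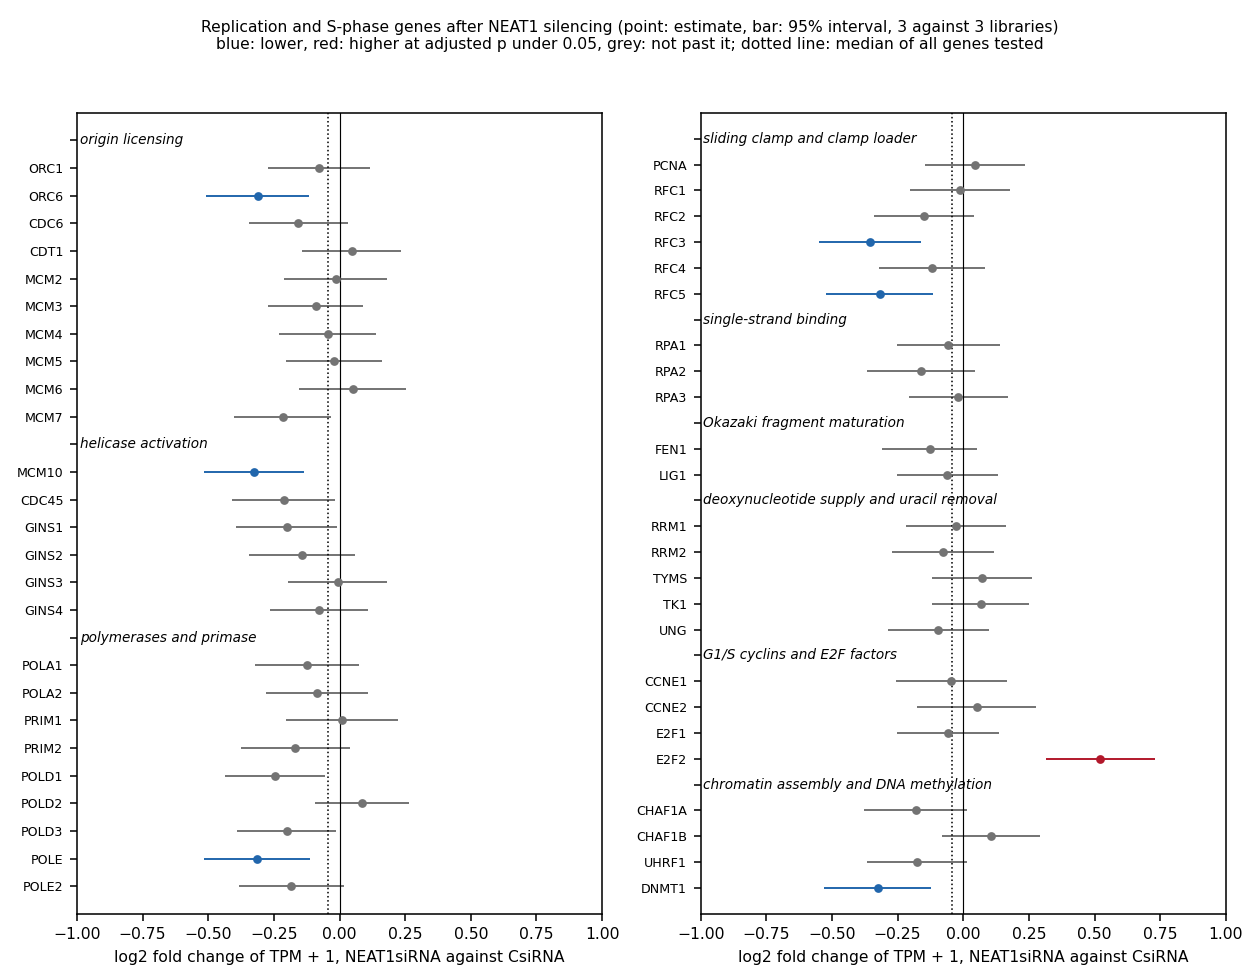
Log2 fold change of TPM + 1 (horizontal axis, NEAT1siRNA against CsiRNA) for the 49 members, grouped by role, with points for the estimates and bars for 95% intervals (3 against 3 libraries). Blue points are the 6 members that fell, the red point is E2F2 at 0.52, grey points did not pass the threshold, and the dotted line marks the median of all genes tested (-0.04).

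Because E2F binding at the promoter is what many of these genes are known for, their start sites were searched for 4 E2F words (TTTCCCGC, TTTGGCGC, TTTCGCGC and TTTGCCGC, on both strands) in the 250 bases before and 50 after the RefSeq gene start (GRCh38.p14). Of 42 members with a promoter entry, 21 held a word, against 3.33% of 27305 promoters in all and 5.81% of 8316 promoters of genes tested. Many genes on the list are textbook E2F targets, so that this share describes the list. The 250 bases before the RefSeq start are shown for 3 of the changed genes that hold a word there, with the word in capitals. These are E2F2, which rose, and RFC3 and POLE, which fell. The E2F2 stretch lies at chr1:23531234-23531483 (minus strand), that of RFC3 at chr13:33817899-33818148 (plus strand) and that of POLE at chr12:132687343-132687592 (minus strand). The gene coordinates given below come from GENCODE, which starts RFC3 and POLE farther upstream. By those, part of the RFC3 and POLE stretches, with the word, lies inside the gene.
E2F2: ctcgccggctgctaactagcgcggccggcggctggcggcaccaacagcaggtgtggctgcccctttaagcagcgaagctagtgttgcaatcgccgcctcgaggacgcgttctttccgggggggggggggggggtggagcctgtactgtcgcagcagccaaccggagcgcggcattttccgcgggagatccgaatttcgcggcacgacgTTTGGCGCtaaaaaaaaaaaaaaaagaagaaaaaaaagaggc
RFC3: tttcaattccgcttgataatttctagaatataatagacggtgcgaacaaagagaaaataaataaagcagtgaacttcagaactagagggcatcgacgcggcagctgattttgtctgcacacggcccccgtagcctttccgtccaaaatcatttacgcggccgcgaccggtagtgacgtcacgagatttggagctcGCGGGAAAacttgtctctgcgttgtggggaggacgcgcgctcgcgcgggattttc
POLE: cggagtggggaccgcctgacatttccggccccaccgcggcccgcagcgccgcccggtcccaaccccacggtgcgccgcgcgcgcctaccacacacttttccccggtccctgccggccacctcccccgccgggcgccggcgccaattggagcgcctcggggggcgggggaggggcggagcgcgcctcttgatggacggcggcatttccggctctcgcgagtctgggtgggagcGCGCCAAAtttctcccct

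For comparison, 28 bases around the word are shown for DNMT1, which also fell, and for 4 members whose level differed little between the groups. These windows lie at chr19:10194938-10194965 (DNMT1, minus strand), chr20:5126664-5126691 (PCNA, minus strand), chr18:657604-657631 (TYMS, plus strand), chr3:127598403-127598430 (MCM2, plus strand) and chr20:33686401-33686428 (E2F1, minus strand), with the word in capitals. MCM2 and E2F1 each hold another word, starting at 6 and -20 bases from the gene start, that is not marked separately. The DNMT1 window lies inside the GENCODE span of that gene given below.
DNMT1: atcggtttccGCGCGAAAagccggggcg
PCNA: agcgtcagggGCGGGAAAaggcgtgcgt
TYMS: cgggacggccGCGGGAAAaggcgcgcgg
MCM2: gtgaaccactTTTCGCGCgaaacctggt
E2F1: tggctctttcGCGGCAAAaaggatttgg

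An E2F word was found in 4 of 7 changed members (E2F2, RFC3, DNMT1 and POLE) and in 17 of 35 others with an entry (48.6%). With 7 changed members, whose 6 lower calls depended on single libraries, this comparison could show only a large difference. The median log2 fold change was -0.09 in the 21 members with a word and -0.10 in the 21 without. E2F2, which rose, and POLE, which fell, carry the same word, TTTGGCGC, on opposite strands. Of 28 words, 20 began within 60 bases before to 10 bases after the start. MCM6 held 4, in overlapping pairs, and the 2 words of MCM2 overlapped as well. The MYC word CACGTG was found in 5 of 42 members (11.9%) against 10.7% of promoters of genes tested, and in 0 of the 7 changed members. CCAAT was found in 24 of 42 members (57.1%), in 18 of 20 promoters of G2/M genes (90.0%) and in 37.3% of promoters of genes tested. A match of letters does not show that a factor binds, and the lack of these exact words does not show that a site is missing.

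**Figure D2:**
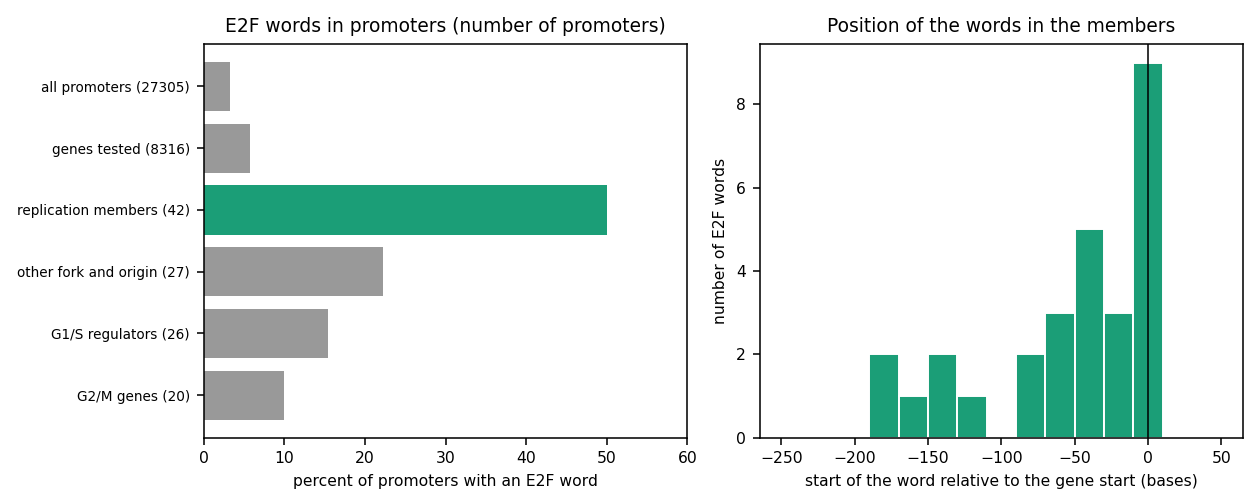
Left, the percent of promoters (horizontal axis) that hold at least 1 E2F word in each gene group, with the number of promoters in brackets. Right, the number of words (vertical axis) by their start relative to the gene start in bases, for the members. The replication members stand highest with 21 of 42, the genes tested at 5.81% and the G2/M genes at 10.0%.

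Origin licensing showed 1 change in 10 genes, against 14.0% of all genes tested. ORC6 (chr16:46689643-46698394, plus strand), the smallest subunit of the origin recognition complex, was measured at 12.8, 11.5 and 12.4 TPM in CsiRNA cells and at 10.7, 9.45 and 8.88 TPM in NEAT1siRNA cells. All 3 NEAT1siRNA values were below the CsiRNA range, and the gene fell to 79.1% (log2 fold change -0.31 ± 0.10 (SE), limma adjusted p = 0.0297). ORC1, another subunit of that complex, was at 94.3% of its CsiRNA mean, with overlapping groups. CDC6, the loader of the helicase, was lower in all NEAT1siRNA libraries (17.7, 17.2 and 15.8 TPM against 15.6, 14.9 and 14.6 TPM), but at -0.16 did not pass the test (adjusted p = 0.279). CDT1, its partner in loading, was measured at 10.9, 10.7 and 10.4 TPM against 11.5, 11.1 and 10.4 TPM.

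The helicase ring itself showed 0 of 6 genes past the threshold with limma on TPM, with 1 of 6 at an unadjusted p under 0.05. None passed with voom on recovered reads. Of the 10721 genes tested, 14.0% passed with limma and 2942 had an unadjusted p under 0.05, so that counts over 6 genes do not set the ring apart. MCM4, its most abundant subunit transcript, was measured at 97.6, 94.0 and 87.5 TPM in CsiRNA cells and at 91.8, 95.8 and 82.9 TPM in NEAT1siRNA cells. MCM3 followed at 59.8, 56.1 and 60.5 TPM against 56.9, 56.6 and 52.0 TPM. The groups overlapped for both, and the 95% interval of the MCM4 change ran from -0.23 to 0.14. The gene with an unadjusted p under 0.05 was MCM7, at 38.5, 35.1 and 34.7 TPM in CsiRNA cells and 31.9, 30.7 and 30.1 TPM in NEAT1siRNA cells. Its log2 fold change was -0.22 (adjusted p = 0.108), and it passed only when a GC and length trend was removed, with or without the replicate block. The median over the 6 genes was -0.03 and had no fixed sign, running from -0.07 to 0.05 over the 18 settings. By mean TPM over the CsiRNA libraries the order was MCM4 (93.0), MCM3 (58.8), MCM7 (36.1), MCM5 (31.6), MCM6 (20.9) and MCM2 (19.2), although the 6 proteins form one ring.

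All 6 genes of helicase activation had a negative log2 fold change, against 60.7% of all genes tested. Their median was -0.17, against -0.04 for all genes tested, and 1 of the 6 passed the test, against 14.0% of all genes. MCM10 (chr10:13161558-13211110, plus strand), which binds the activated helicase and polymerase alpha, was measured at 14.6, 13.8 and 12.8 TPM in CsiRNA cells and at 10.9, 11.2 and 10.1 TPM in NEAT1siRNA cells. The ranges were apart, and MCM10 fell to 78.2% (log2 fold change -0.33 ± 0.09 (SE), limma adjusted p = 0.0195). CDC45, the helicase cofactor, was measured at 7.40, 8.05 and 7.01 TPM against 6.32, 6.85 and 5.80 TPM, without overlap and without passing the test (-0.21, adjusted p = 0.145). Among the GINS genes, 0 of 4 passed, with 1 at an unadjusted p under 0.05 (2942 of the 10721 genes tested) and none with voom. GINS1 was measured at 25.04, 25.03 and 21.4 TPM against 20.8, 20.7 and 20.2 TPM (adjusted p = 0.156). GINS4 overlapped between the groups at 17.0, 17.0 and 16.1 TPM against 15.8, 16.5 and 15.0 TPM, and GINS3 was at 99.4% of its CsiRNA mean. The fewest negative genes in any setting were 4 of 6 for the activation group and 2 of 4 for GINS.

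Among 9 polymerase and primase genes, POLE alone passed, against 14.0% of all genes tested. POLE (chr12:132623753-132687376, minus strand), the catalytic subunit of the leading-strand polymerase epsilon, was measured at 10.5, 8.80 and 9.43 TPM in CsiRNA cells and at 8.30, 7.43 and 6.82 TPM in NEAT1siRNA cells. The groups did not overlap, and the level fell to 78.4% (log2 fold change -0.31 ± 0.10 (SE), limma adjusted p = 0.0337). POLE2, its second subunit, was at 86.9% (adjusted p = 0.226). In polymerase delta no subunit passed. POLD1, the catalytic subunit, was measured at 5.94, 5.70 and 6.12 TPM against 5.12, 4.63 and 4.76 TPM (-0.25, adjusted p = 0.0781), and POLD3 was also below its CsiRNA range (-0.20, adjusted p = 0.152). POLD2, the most abundant of the 9, was measured at 53.0, 48.1 and 50.1 TPM against 54.8, 53.2 and 52.7 TPM. Its change was 0.09, with a 95% interval from -0.09 to 0.27. PRIM1, the catalytic primase subunit, was highest in NEAT1siRNA replicate 2, at 31.1, 29.7 and 26.7 TPM against 26.8, 35.2 and 26.7 TPM.

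The clamp loader changed in part while the clamp did not pass the test. RFC3 (chr13:33818069-33966558, plus strand), a small subunit of the loader, was measured at 31.8, 29.8 and 28.01 TPM in CsiRNA cells and at 21.9, 25.6 and 22 TPM in NEAT1siRNA cells. The lowest CsiRNA value was above the highest NEAT1siRNA value, and RFC3 fell to 77.6% (log2 fold change -0.35 ± 0.09 (SE), limma adjusted p = 0.0124), the lowest percentage among the members. RFC5 (chr12:118013588-118033130, plus strand), another small subunit, was measured at 15.3, 13.9 and 12.2 TPM against 10.2, 11.9 and 10.4 TPM. It too did not overlap, and it fell to 78.6% (-0.32 ± 0.10 (SE), limma adjusted p = 0.0329). The other 3 loader genes did not pass, with RFC2 at 89.5%, RFC4 at 91.7% and the large subunit RFC1 at 99.4% of the CsiRNA mean. PCNA, the sliding clamp and the member with the highest level, was measured at 141, 141 and 126 TPM against 133, 158 and 130 TPM. Its groups overlapped, and the 95% interval of its change ran from -0.15 to 0.23. RFC3, RFC5 and PCNA have annotated pseudogenes (1, 1 and 3), and how reads between copies were assigned is not given in the sources used here.

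**Figure D3:**
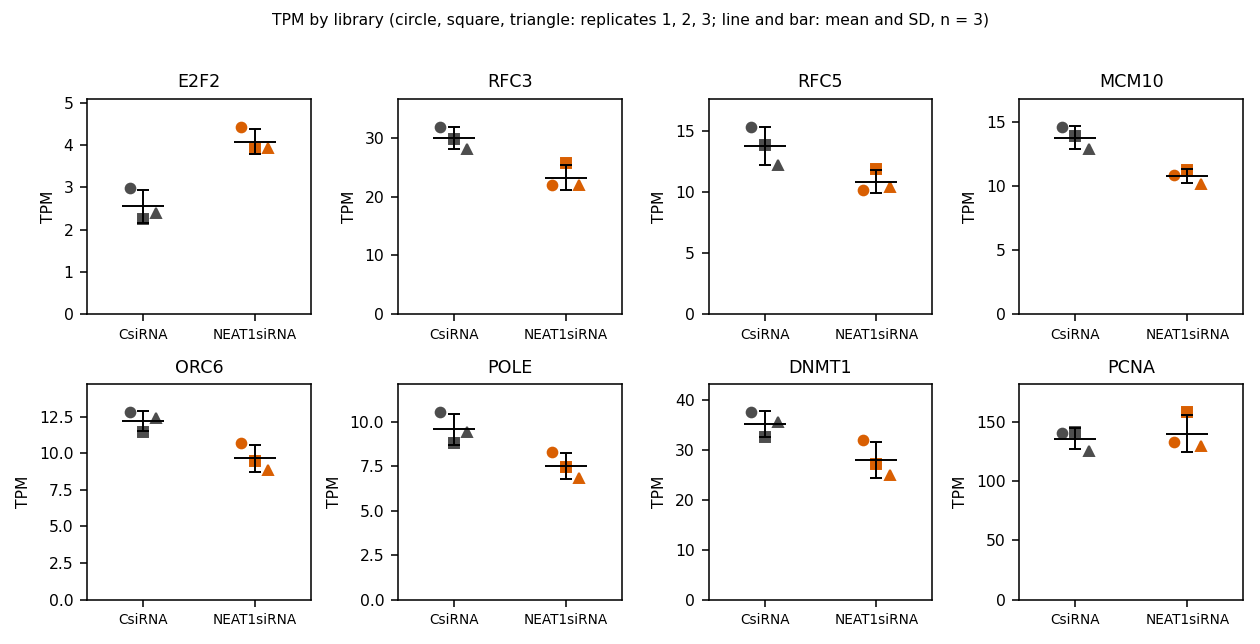
TPM (vertical axes, from 0) in each library for the 7 members that changed and for PCNA, with circles, squares and triangles for replicates 1, 2 and 3 and lines and bars for mean and SD (n = 3). E2F2 is higher in all 3 NEAT1siRNA libraries, RFC3, RFC5, MCM10, ORC6, POLE and DNMT1 are lower in all 3, and PCNA overlaps.

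Single-strand binding and the maturation of Okazaki fragments gave 0 of 3 and 0 of 2 genes past the threshold, against 14.0% of all genes tested. None had an unadjusted p under 0.05 (2942 of the 10721 genes tested), and none passed with voom. RPA1, the large subunit of the single-strand binding complex, was measured at 37.0, 36.2 and 30.8 TPM against 33.7, 35.2 and 30.8 TPM, and RPA2 at 19.0, 18.6 and 15.1 TPM against 14.8, 16.9 and 14.9 TPM. Both overlapped. FEN1, the flap nuclease, was measured at 37.3, 37.9 and 36.5 TPM against 33.8, 35.3 and 32.9 TPM, lower in every NEAT1siRNA library and at 91.3% of the CsiRNA mean (adjusted p = 0.372). LIG1, the ligase that seals the fragments, overlapped at 4.58, 4.38 and 4.996 TPM against 4.53, 4.29 and 4.42 TPM.

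The genes of deoxynucleotide supply and uracil removal lay close to 0. None of 5 passed the threshold with limma or with voom, 0 had an unadjusted p under 0.05, and all 5 lay within 0.1 of 0 on the log2 scale. Of the 10721 genes tested, 14.0% passed with limma, 2942 had an unadjusted p under 0.05 and 4636 lay within 0.1 of 0. RRM2, the regulated subunit of ribonucleotide reductase, was measured at 92.5, 91.2 and 81.1 TPM against 77.3, 94.6 and 79.4 TPM. TYMS, thymidylate synthase, was measured at 52.0, 48.5 and 44.1 TPM against 49.9, 54.0 and 48.0 TPM. Both overlapped, and the 95% intervals were -0.27 to 0.12 for RRM2 and -0.12 to 0.26 for TYMS, so that changes of the size seen for RFC3 lie outside them. TYMS passed as higher when a GC and length trend was removed (0.12, adjusted p = 0.0464). Its locus overlaps ENOSF1 and TYMSOS on the opposite strand.

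Among the G1/S cyclins and E2F factors, E2F2 rose and its relative E2F1 did not pass. E2F2 (chr1:23506438-23531233, minus strand), an activator E2F, was measured at 2.997, 2.26 and 2.40 TPM in CsiRNA cells and at 4.43, 3.91 and 3.92 TPM in NEAT1siRNA cells. Every NEAT1siRNA value exceeded every CsiRNA value, and the log2 fold change was 0.52 ± 0.10 (SE, 95% interval 0.31 to 0.73, limma adjusted p = 0.000905). E2F2 had the lowest mean level of the members, with 377 recovered reads per library on average, and its change was 0.73 with voom on those reads. E2F1 was measured at 16.6, 14.7 and 15.4 TPM against 15.7, 15.4 and 13.7 TPM, and CCNE2, a cyclin E, at 33.4, 32.9 and 29.1 TPM against 27.7, 40.6 and 31.7 TPM. Both overlapped, and CCNE1 was at 95.8% of its CsiRNA mean. CCNE2 had the widest interval of the members (half-width 0.23) and its highest value in NEAT1siRNA replicate 2. In that library deviations from the group mean correlated with transcript GC percentage (Spearman) at -0.675 over the members and at -0.73 over 10423 genes. CCNE2 had 34.6% GC. The part of GC in this spread was not tested.

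Of the chromatin genes, DNMT1 fell. DNMT1 (chr19:10133342-10231286, minus strand), the maintenance DNA methyltransferase that acts behind the fork, was measured at 37.5, 32.5 and 35.6 TPM in CsiRNA cells and at 31.9, 27.1 and 24.9 TPM in NEAT1siRNA cells. The lowest CsiRNA value was just above the highest NEAT1siRNA value, and the level fell to 79.5% (log2 fold change -0.33 ± 0.10 (SE), limma adjusted p = 0.0282). UHRF1, which recruits DNMT1 to hemimethylated DNA, was measured at 20.2, 18.5 and 18.3 TPM against 16.6, 17.9 and 15.7 TPM, also without overlap but short of the threshold (-0.18, adjusted p = 0.225). The subunits of the CAF-1 histone chaperone differed in sign, CHAF1A at 87.6% (adjusted p = 0.221) and CHAF1B at 108% (adjusted p = 0.484) of their CsiRNA means.

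The 6 lower calls depended on which libraries were included, while E2F2 passed with any single library left out. Without CsiRNA replicate 1, and again without NEAT1siRNA replicate 3, none of the 6 passed, although their log2 fold changes stayed at -0.31 to -0.25 and at -0.32 to -0.25. MCM10 and RFC5 were also lost without CsiRNA replicate 2, ORC6 and POLE without CsiRNA replicate 3, and RFC5 without NEAT1siRNA replicate 1. CsiRNA replicate 1 was the highest CsiRNA library for 38 of 49 members, and NEAT1siRNA replicate 3 was the lowest NEAT1siRNA library for 38. The member median relative to the CsiRNA mean was 0.07, 0.01 and -0.09 in CsiRNA replicates 1 to 3 and -0.09, -0.03 and -0.17 in NEAT1siRNA replicates 1 to 3, so that the groups overlapped. The median of all genes tested moved likewise, at 0.07, -0.02 and -0.06 against -0.05, 0.02 and -0.11. The share of TPM held by 4 short RNAs (RN7SK, RN7SL1, RN7SL2 and RPPH1) was 64.4%, 65.6% and 67.7% in CsiRNA and 66.9%, 64.9% and 68.1% in NEAT1siRNA, lowest in CsiRNA replicate 1 and highest in NEAT1siRNA replicate 3. Its part in the result was not tested beyond rescaling TPM without those RNAs, after which the same 7 members passed. The members took 0.438%, 0.446% and 0.437% of recovered reads in CsiRNA and 0.434%, 0.426% and 0.427% in NEAT1siRNA. These shares did not overlap, but the closest, 0.437% and 0.434%, differed little. How often other gene sets of this size separate in this way was not computed.

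**Figure D4:**
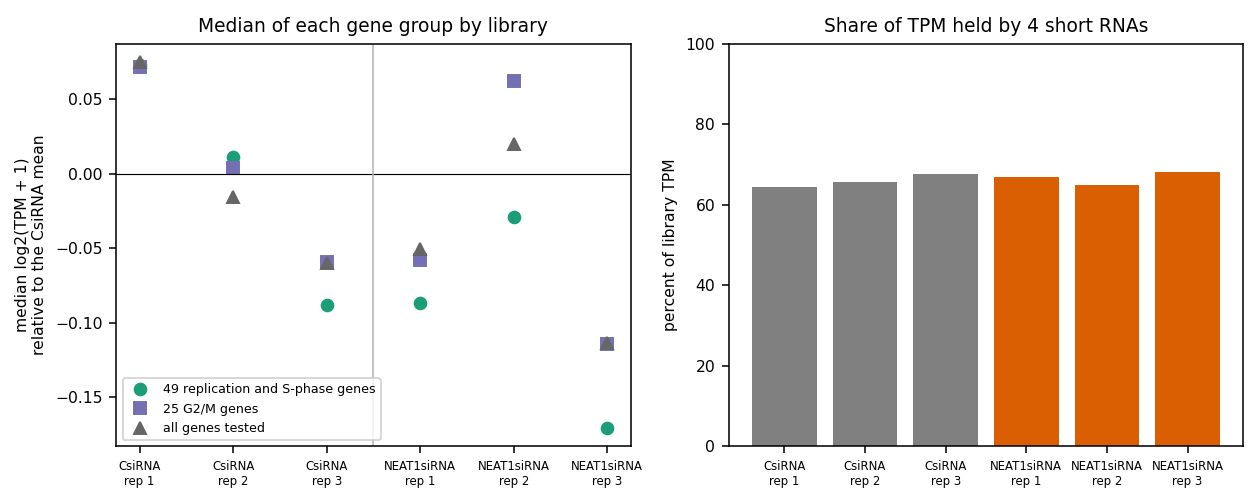
Left, the median of log2(TPM + 1) relative to the CsiRNA mean (vertical axis) in each of the 6 libraries for the 49 members, 25 G2/M genes and all genes tested. Right, the percent of TPM held by 4 short RNAs in each library (bars from 0). CsiRNA replicate 1 stands highest for all 3 gene groups and NEAT1siRNA replicate 3 lowest, at -0.17 for the members.

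The wider machinery of replication changed about as often as all genes tested. Of 33 other fork and origin factors, 5 fell (15.2%, against 14.0% of all genes called and 8.98% called lower) and none rose, with a median of -0.13. These were TOP1, the topoisomerase that relieves torsion ahead of the fork (log2 fold change -0.47), CHTF18 (-0.45) and DSCC1 (-0.29) of the alternative clamp loader, POLE3 (-0.35), an accessory subunit of polymerase epsilon, and RECQL4 (-0.35), a helicase of origin firing. TOP1 was measured at 54.3, 52.5 and 55.6 TPM against 39.6, 40.4 and 36.7 TPM, ranges that were far apart. POLE3 likewise did not overlap, at 42.7, 41.5 and 39.7 TPM against 31.5, 33.4 and 31.3 TPM, whereas CHTF18 did. When single libraries were left out, the number past the threshold ran from 1 to 9. TOP1 passed in all 6 such fits and POLE3 in 5 (not without CsiRNA replicate 1). CHTF18 and RECQL4 were lost without CsiRNA replicate 1 or 3 or NEAT1siRNA replicate 3, and DSCC1 without CsiRNA replicate 1 or 2 or NEAT1siRNA replicate 1 or 3.

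In nucleotide synthesis, 4 of 18 genes fell and 1 rose (27.8% together, against 14.0% of all genes), with a median of -0.13. CAD, which opens pyrimidine synthesis, fell by 0.48 on the log2 scale (14.3, 10.6 and 11.7 TPM against 9.59, 8.28 and 7.42 TPM, limma adjusted p = 0.00337). CTPS1, which makes CTP, fell by 0.42 (46.9, 45.6 and 40.0 TPM against 33.1, 34.1 and 31.2 TPM). Neither overlapped. PPAT (-0.33) and ADSL (-0.31), both of purine synthesis, fell as well, but both were lost without CsiRNA replicate 1 or 2 or NEAT1siRNA replicate 3, and PPAT also without NEAT1siRNA replicate 1. RRM2B, the p53-inducible subunit of ribonucleotide reductase, rose by 0.31 to 15.3, 20.4 and 16.6 TPM from 15.0, 13.9 and 12.5 TPM (adjusted p = 0.0488). That call was lost in 8 of 17 alternatives and held in 1 of 6 fits with a library left out (without NEAT1siRNA replicate 1), with a log2 fold change from 0.19 to 0.39. Of 12 genes of histone deposition and chromatin copying, TONSL alone passed (-0.32), against 14.0% of all genes, with a median over the list of -0.01. The TONSL call was lost without CsiRNA replicate 1 or 3 or NEAT1siRNA replicate 3.

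The regulators of G1/S moved in both directions, and the CDK inhibitors, a subset of that list, shared a sign. Of 31 tested of 33 listed, 5 fell and 4 rose (29.0% together, against 14.0% of all genes called, 8.98% lower and 4.99% higher). All 6 tested CDK inhibitors had a positive log2 fold change, against 4214 of the 10721 genes tested. The inhibitors were also positive in every other setting for those it kept (4 at a mean TPM of at least 5), though the settings draw on the same libraries. Past the threshold 4 rose: CDKN2B (0.62), CDKN1B (0.59), CDKN2C (0.44) and CDKN2D (0.33). CDKN1B, which encodes p27, was measured at 36.8, 35.5 and 30.0 TPM in CsiRNA cells and at 49.1, 59.6 and 47.5 TPM in NEAT1siRNA cells (limma adjusted p = 0.000238). CDKN2B, which encodes p15, was measured at 17.8, 16.4 and 16.0 TPM against 23.7, 30.1 and 25.4 TPM (adjusted p = 9.59e-05). Neither overlapped. CDKN2D was low (1.18, 1.65 and 1.26 TPM against 2.31, 2.01 and 1.58 TPM) and overlapped, and its call was lost in 6 of 16 alternatives, among them voom, quantile normalization and the fits without CsiRNA replicate 1, CsiRNA replicate 3 or NEAT1siRNA replicate 1, with a log2 fold change from 0.24 to 0.58. CDKN1A, which encodes p21, differed by 0.25 (adjusted p = 0.0981) and CDKN2A by 0.19 (adjusted p = 0.124), and neither passed.

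The regulators that fell were CCND1 (log2 fold change -0.73), MYC (-0.43), CDK6 (-0.41), CDC25A (-0.40) and E2F4 (-0.30). CCND1, cyclin D1, was measured at 15.3, 14.8 and 14.9 TPM in CsiRNA cells and at 8.46, 9.72 and 7.82 TPM in NEAT1siRNA cells, ranges without overlap, and fell to 57.7% (limma adjusted p = 8.54e-06). CDK6, its kinase partner, was measured at 35.1, 30.4 and 28.3 TPM against 22.9, 26.0 and 21.1 TPM, and MYC at 38.6, 36.3 and 35.3 TPM against 27.2, 28.1 and 25.9 TPM. CDC25A, the phosphatase that activates cyclin E kinase, was measured at 11.8, 10.9 and 9.84 TPM against 8.39, 8.05 and 7.38 TPM. CCND1, CDK6, MYC and CDC25A did not overlap between the groups. CDK6 was lost without CsiRNA replicate 1 or NEAT1siRNA replicate 3, and E2F4 without either of these or CsiRNA replicate 2. RB1 was measured at 5.77, 5.11 and 4.84 TPM against 5.18, 7.57 and 5.38 TPM, with overlap (0.16, adjusted p = 0.379). These regulators stood beside 49 members, of which 6 fell and 1 rose (14.3% together, against 14.0% of all genes). RFC3, RFC5, MCM10, DNMT1, ORC6 and POLE fell and E2F2 rose. E2F1, CCNE1, CCNE2, PCNA and MCM2 to MCM7 were among the 42 members that did not pass. RB1 protein was not measured, and a link between the regulators and the members was not tested.

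**Figure D5:**
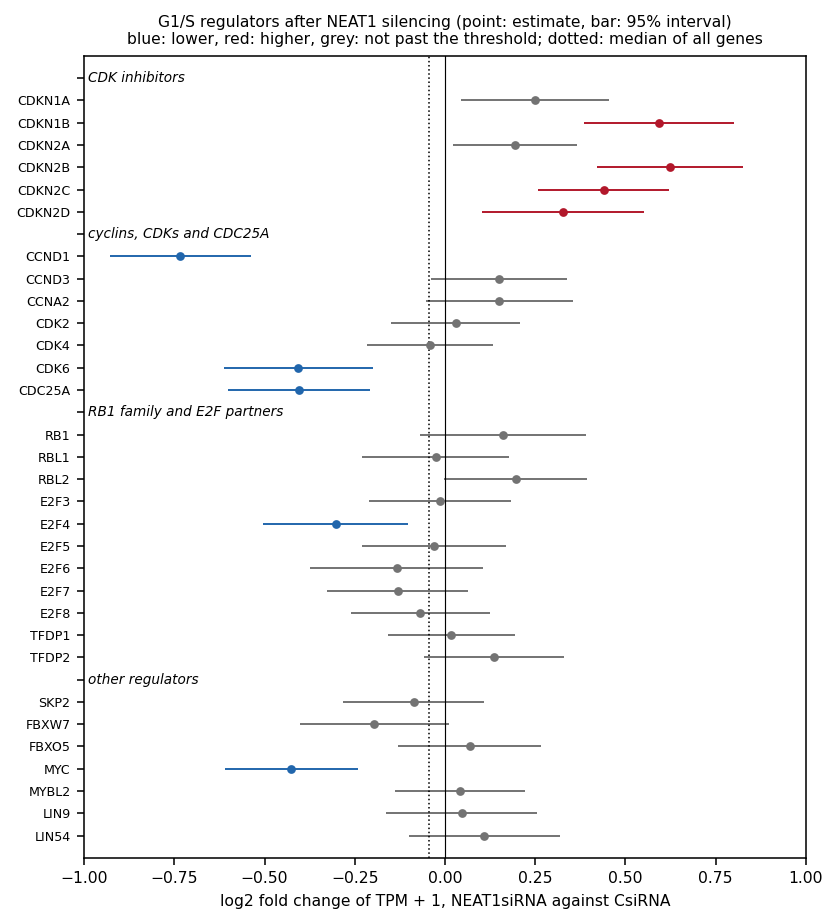
Log2 fold change of TPM + 1 (horizontal axis, NEAT1siRNA against CsiRNA) for the 31 G1/S regulators tested, with points for the estimates and bars for 95% intervals. Red points mark the 4 CDK inhibitors that rose (0.33 to 0.62), blue points the 5 genes that fell, with CCND1 lowest at -0.73, and grey points did not pass the threshold.

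Genes of the next cell cycle phase gave a reference for the members. None of 25 G2/M genes passed the threshold with limma on TPM, against 14.0% of all genes tested. Of the 25, 3 had an unadjusted p under 0.05, against 2942 of the 10721 genes tested. With voom on recovered reads 4 of the 25 passed (2475 genes in all), and 7 with a GC and length trend removed (3468 genes in all). The median of the G2/M genes was -0.03 and had no fixed sign, running from -0.09 to 0.03 over the 18 settings. Between the libraries the G2/M median moved with that of the members, as the plot of medians by library shows.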

How the data were processed

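RNA-seq values of 3 CsiRNA and 3 NEAT1siRNA libraries of BT-549 cells were analysed. Per the labels, stranded mRNA libraries were prepared, and the submitters' processing notes name STAR, GRCh38 and DESeq2. The authors deposited TPM per gene and library, and a comparison table with a mean normalized count (a signal pooled over the libraries) beside log2 fold changes, their errors, test scores and p-values, none of which were used. Strand settings of counting are not given in the sources used here.

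TPM were transformed to log2(TPM + 1), 10721 of 25545 genes with mean TPM at or above 1 were kept, and groups were compared with lmFit and eBayes (trend) of limma 3.58.1 in R 4.3.3, with Benjamini-Hochberg adjustment over all genes tested and a threshold of 0.05. The script was tested on simulated data. With 3 against 3 libraries an exact permutation test cannot go below p = 0.1. Reads were recovered from TPM ratios and the pooled signal as deposited. Of values with a mean up to 5, 100.0% came out whole within 0.05, as did 79.1% of those from 50 to 500. Above 500 only 19.1% did, so that this check says little for members at that depth, such as MCM4. These reads served for depth and for limma's voom as an alternative.

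Every member was eligible to be named, library values are given for changed members and for the 2 most abundant of each role, and at most 6 changed genes of each other list were named, with RB1, MYC, CDKN1A, CDKN2A and CCND1 always. The members and lists were chosen with earlier results of these data known. Coordinates came from GENCODE (GRCh38) by symbol and promoters from RefSeq (GRCh38.p14), and 42 of 49 members had a promoter entry. Python 3.11.15 with pandas 2.3.3 and matplotlib 3.10.9 was used.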

Additional observations from a re-analysis of the deposited data

How the results depend on the processing

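The 6 lower calls among the members depended on single libraries and E2F2 did not. The same 7 members passed with a pseudocount of 0.1, median centring, TPM rescaled without 4 short RNAs, no trend and voom. DNMT1 was lost under quantile normalization and E2F2 was filtered out at a mean TPM of at least 5. With no filter on TPM 0 of 49 members passed with limma (15 at an unadjusted p under 0.05; limma with voom on the filtered genes called 7), as did 505 genes in all, 2 other fork and origin factors, 1 nucleotide synthesis gene, 0 histone deposition genes and 4 G1/S regulators. Removal of a GC and length trend gave 13 members (9 lower, 4 higher), 3468 genes, 15 other factors, 5 histone deposition genes, 15 G1/S regulators and 7 G2/M genes, and with the replicate block added 12 members, 3392 genes, 14, 5, 15 and 7. Voom gave 2475 genes, 8 other factors, 4 histone deposition genes and 4 G2/M genes. Quantile normalization gave 8 other factors, 3 histone deposition genes and 1 G2/M gene, median centring 2 and 1 of the last 2 lists, rescaled TPM 2 and 2, and a mean TPM of at least 5 gave 1 G2/M gene. Over the members, the deviations of a library from its group mean correlated with transcript GC percentage (Spearman) at -0.10, -0.50 and 0.53 in CsiRNA replicates 1 to 3. In NEAT1siRNA replicates 1 to 3 the values were 0.63, -0.675 and 0.07. The pattern was not particular to the members. Over 10423 genes the correlations were -0.21, -0.34 and 0.47 in CsiRNA replicates 1 to 3 and 0.68, -0.73 and 0.14 in NEAT1siRNA replicates 1 to 3. The causes were not tested. Of the genes called, 535 were higher and 963 lower (35.7% higher), against 1082 and 1109 (49.4%) with quantile normalization, 1158 and 954 (54.8%) with median centring, 1153 and 1322 (46.6%) with voom and 1704 and 1764 (49.1%) with the trend removed. No gene that passed and is named changed sign in any alternative, while members close to 0, such as MCM4 (-0.05, and 0.04 with the trend removed), did.

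Leaving out one library gave 1 to 7 members, a member median of -0.14 to -0.05, 759 to 2083 genes, 1 to 9 other factors, 2 to 5 nucleotide synthesis genes, 0 to 2 histone deposition genes, 6 to 9 G1/S regulators, 0 to 3 G2/M genes and a NEAT1 change of -1.60 to -1.24. The 1 member was E2F2, without CsiRNA replicate 1 and without NEAT1siRNA replicate 3. Same-numbered libraries correlated in their deviations at -0.03, 0.25 and -0.11, so the numbers were not taken to pair them, and NEAT1siRNA replicate 1 correlated best with CsiRNA replicate 3 (0.40). The replicate block gave the same 7 members, 1640 genes and 2 G2/M genes. With 3 libraries per group the 95% interval of a member's change had a median half-width of 0.19 on the log2 scale.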
